A study of Mus musculus with 6 samples.

Results

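Folates are cofactors that carry single carbon units between enzymes. Cells take up folate, trap it as polyglutamate, load it with carbon taken mainly from serine, and spend that carbon on purines, thymidylate and the remethylation of homocysteine to methionine. In the cytosol the enzyme encoded by Aldh1l1 works the other way, oxidising 10-formyl-tetrahydrofolate to tetrahydrofolate and carbon dioxide, and in brain the gene is widely used as a marker of astrocytes. The account below covers 7 genes of this cycle among the 54146 genes in the count files: Aldh1l1, Mthfd1, Mthfd1l, Shmt1, Mtr, Fpgs and Slc19a1. They were listed by name, and Aldh1l1 was included for being among the largest falls in knockout cells, so the difference between knockout and wild-type (WT) cells was used in the choice and is given for the 7 as a description with no test. All 7 passed the filter on low counts that left 13120 genes, Aldh1l1 through its WT counts alone.

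Total RNA was sequenced in NIH/3T3 cells, an immortalised fibroblast line from embryos of Swiss albino mice. The groups were Mki67-/- clone 1, Mki67-/- clone 2 and WT cells, with 2 libraries each, grown in high-glucose medium with foetal bovine serum. Mki67 encodes Ki-67, a nuclear protein of proliferating cells. Each knockout group is 1 clone, and neither the way the clones were made nor their relation to the WT cells is stated in the sources used here. Nothing says that replicates came from different cultures. The p-values therefore reflect only how far these libraries spread, which may be technical.

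Gene counts per library ran from 15087148 to 19678782 in the knockout clones, and were 3873249 and 11377172 in WT. CPM values below are counts scaled to the library's total gene count. The edgeR log2 fold changes also use a scaling factor per library (TMM), 0.951 and 0.976 in WT and 1.01 to 1.03 in knockout libraries. Overlaps and shares stated in CPM leave these factors out, and where gaps are small they could change with them. Mki67 itself was at 4.27 to 7.82 CPM in the knockout libraries, against 46.7 and 53.8 CPM in WT, so the groups did not overlap (log2 fold change −3.35 ± 0.18 SE for the mean of both clones; adjusted p = 1.13e-08, edgeR). One protocol label names 4T1, an epithelial tumour line, where the other labels name NIH/3T3. The 8 fibroblast markers summed to 6949 to 7839 CPM in knockout and 8535 to 9986 CPM in WT libraries, with 1 marker called higher and 4 lower; the part of this difference in the results below was not tested. The 6 epithelial markers summed to 1.20 to 2.08 CPM in knockout and 1.03 to 1.23 CPM in WT libraries, with Epcam at 0 counts throughout.

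Aldh1l1 was nearly absent from both knockout clones. It had 6 and 5 counts in clone 1 and 6 and 5 counts in clone 2, against 139 and 421 counts in the shallower WT libraries. In CPM this was 0.305 and 0.323 in clone 1, 0.378 and 0.331 in clone 2, and 35.9 and 37.0 in WT. All 4 knockout libraries lay far below both WT libraries, and the WT libraries were close to each other. Relative to WT the log2 fold change (± SE) came to −6.90 ± 0.26 for clone 1, −6.73 ± 0.26 for clone 2 and −6.81 ± 0.20 for the mean of both clones, which put Aldh1l1 at rank 39 from the lowest among 13120 genes tested. From the raw counts, the WT level was 117 times that of clone 1 (95% exact binomial interval 65.1 to 237) and 103 times that of clone 2 (57.3 to 208), intervals that cover counting error only. On the log2 scale these intervals are wider than the SEs of the clones imply. At such low counts the SEs given for Aldh1l1 against WT therefore understate the error. In bulk RNA, fewer expressing cells and less RNA per cell cannot be told apart.

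Aldh1l1 (ENSMUSG00000030088) lies on the plus strand of chromosome 6 at 90486427 to 90600203 in GRCm38. Its exons share 499 bases with Gm15756, an antisense gene, and 105 bases with Gm45901 on the same strand. Both of those genes had 0 counts in all 6 libraries. Reads on the opposite strand made up 0.513% of the Aldh1l1 reads. The nearest protein-coding gene on the lower side is Klf15, a Krüppel-like transcription factor gene 11188 bases from the lower end of the GENCODE span. The RefSeq start described below lies further inside that span, just after base 90550792, and so further from Klf15. Klf15 had at most 2 counts in any knockout library and at most 4 in any WT library. On the higher side, 4521 bases away, lies the magnesium transporter gene Slc41a3. It had 3.96 and 3.36 CPM in clone 1 libraries and 4.60 and 3.51 CPM in those of clone 2, against 6.20 and 4.92 CPM in WT. Its log2 fold change of −0.54 ± 0.23 did not pass the test (edgeR adjusted p = 0.0859), whereas with the replicate number as a block it did (−0.60, adjusted p = 0.0460).

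Since Aldh1l1 marks astrocytes and is abundant in liver, markers of both cell types were measured in the same libraries. The 10 astrocyte markers summed to 208 to 320 CPM in knockout and 199 to 268 CPM in WT libraries, nearly all from the glutamate transporter gene Slc1a3 and the connexin gene Gja1. Aqp4 and S100b had 0 counts in every library, and Gfap reached at most 0.133 CPM in knockout libraries, with 0 in WT. Of the 4 astrocyte markers tested, only the transcription factor gene Sox9 was called, at −0.56 (edgeR adjusted p = 0.0156). The 8 hepatocyte markers summed to 0.646 to 1.64 CPM in knockout and 2.07 to 3.69 CPM in WT libraries, with Alb, Ttr, Tat and Pck1 at 0 counts throughout and Serpina1a, the 1 marker tested, at −1.45 (adjusted p = 0.00760). The part of either marker list in the Aldh1l1 difference was not tested.

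**Figure D1:**
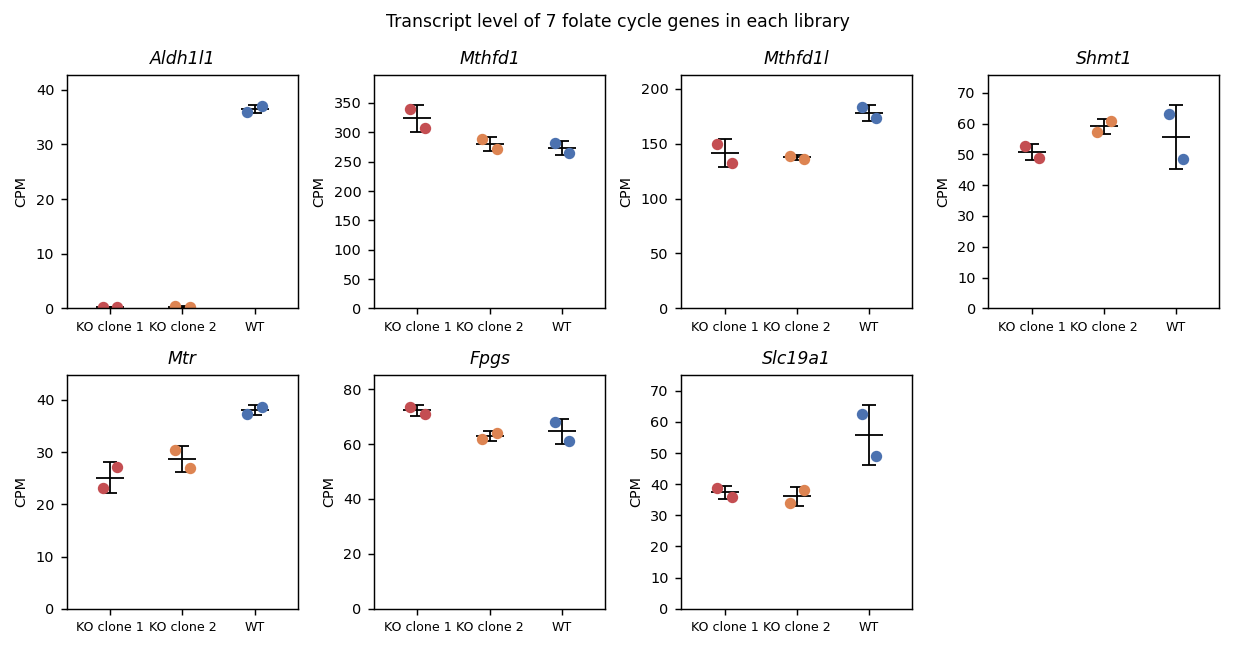
Transcript level in CPM (vertical axes, from 0) of each of the 7 genes in the libraries of knockout clone 1, knockout clone 2 and WT. Points are libraries, and bars give the mean ± SD of 2 libraries. Aldh1l1 stood at 0.305 to 0.378 CPM in the knockout libraries against 35.9 and 37.0 CPM in WT, and Mthfd1l, Mtr and Slc19a1 were lower in every knockout library than in both WT libraries.

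Of the 7 genes, 4 were lower in every knockout library than in both WT libraries, 0 were higher in every one, and 3 overlapped. Among all 13120 genes tested, 20.5% lay wholly below WT, 30.2% wholly above, and 50.7% in all did not overlap. By edgeR's quasi-likelihood test 34.8% of all genes were called between knockout and WT (18.2% lower and 16.6% higher). The median log2 fold change was −0.43 over the 7 genes and 0.00 over all genes tested. Because the choice of the 7 genes used the comparison of knockout with WT, nothing is read from their counts or their median.

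Slc19a1, on chromosome 10 (77032241 to 77061002, plus strand), encodes the reduced folate carrier that brings folate across the plasma membrane. It had 38.9 and 36.0 CPM in clone 1 libraries and 33.9 and 38.2 CPM in those of clone 2, against 62.5 and 48.9 CPM in WT. The clones overlapped each other and stayed below WT, whose libraries differed from each other more than those of either clone. On the log2 scale its difference from WT was −0.63 ± 0.16 for clone 1, −0.69 ± 0.16 for clone 2 and −0.66 ± 0.14 for their mean. The mean came to −0.48 without WT replicate 1 and −0.86 without WT replicate 2.

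Fpgs, on chromosome 2 (32682609 to 32704145, minus strand), encodes folylpolyglutamate synthase, which adds the glutamate tail that keeps folate in the cell. It had 73.6 and 70.9 CPM in clone 1 libraries and 61.7 and 64.2 CPM in those of clone 2, against 67.9 and 61.3 CPM in WT. The WT range overlapped that of clone 2 and lay below clone 1, and the mean log2 fold change was −0.01 ± 0.11. Its exons overlap those of the endothelial receptor gene Eng by 61 bases on the opposite strand, and 0.493% of its reads were on that strand.

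Shmt1, on chromosome 11 (60788104 to 60811718, minus strand), encodes the cytosolic serine hydroxymethyltransferase, which moves a carbon from serine to tetrahydrofolate. It had 52.6 and 48.9 CPM in clone 1 libraries and 57.4 and 60.7 CPM in those of clone 2, against 63.0 and 48.4 CPM in WT. The knockout libraries all fell between the WT libraries. The mean log2 fold change was −0.08 ± 0.13, and it was 0.11 without WT replicate 1 and −0.29 without WT replicate 2. It shares 184 exon bases with Smcr8 on the opposite strand, and its share of reads on that strand, 2.41%, was the highest of the 7 genes.

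Mthfd1 and Mthfd1l encode the C1-tetrahydrofolate synthases of the cytosol and of mitochondria. The cytosolic enzyme interconverts the methylene, methenyl and formyl forms of the cofactor, and the mitochondrial one releases formate for use in the cytosol. Mthfd1 (chromosome 12, 76255298 to 76319803, plus strand) had 340 and 308 CPM in clone 1 libraries and 288 and 271 CPM in those of clone 2, against 282 and 265 CPM in WT. Clone 1 was above WT and clone 2 overlapped it, and the mean log2 fold change was 0.06 ± 0.11. Mthfd1l (chromosome 10, 3973118 to 4167081, plus strand) had 150 and 132 CPM in clone 1 libraries and 139 and 136 CPM in those of clone 2, against 183 and 173 CPM in WT. It was below WT in all 4 knockout libraries, at −0.41 ± 0.13 in clone 1, −0.45 ± 0.13 in clone 2 and −0.43 ± 0.11 for their mean on the log2 scale.

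Mtr, on chromosome 13 (12182712 to 12258113, minus strand), encodes methionine synthase, the cobalamin-dependent enzyme that passes a methyl group from folate to homocysteine. It had 23.1 and 27.2 CPM in clone 1 libraries and 30.4 and 26.9 CPM in those of clone 2, against 37.4 and 38.7 CPM in WT. The clones overlapped each other and were both below WT. The log2 difference from WT was −0.68 ± 0.15 for clone 1, −0.49 ± 0.15 for clone 2 and −0.58 ± 0.13 for their mean.

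**Figure D2:**
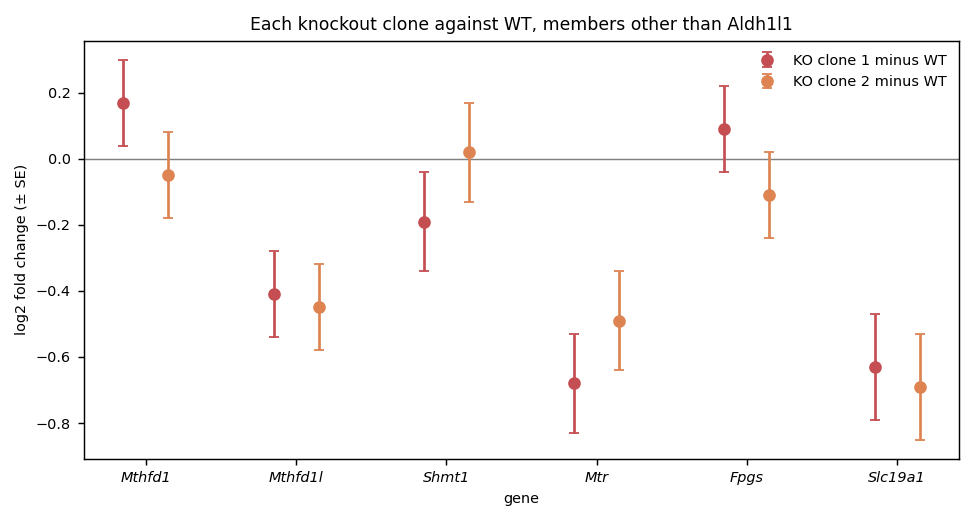
Log2 fold change of knockout clone 1 and knockout clone 2 against WT (vertical axis, points with SE) for the 6 genes other than Aldh1l1. Mthfd1l, Mtr and Slc19a1 lay between −0.41 and −0.69 in both clones, while Mthfd1, Shmt1 and Fpgs lay between −0.19 and 0.17; both clones were set against the same WT libraries.

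The comparison of the clones with each other was not used in choosing the genes and was tested. None of the 7 genes was called between clone 2 and clone 1, either by edgeR's quasi-likelihood test or by DESeq2, and 0 had an unadjusted p below 0.05 in edgeR. With 2 libraries per clone, the lack of a call does not show that levels were equal. Of all genes tested 3.54% were called between the clones, 1.18% higher and 2.36% lower in clone 2. Mthfd1 was at −0.22 ± 0.13 (log2, clone 2 minus clone 1, edgeR adjusted p = 0.458) and Shmt1 at 0.21 ± 0.15 (adjusted p = 0.551). For Aldh1l1, with 11 counts in each clone, the difference of 0.17 had an SE of 0.52, so a moderate difference between the clones was not detectable at this depth. For the other 6 genes the SE was 0.13 to 0.15.

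Per length of exon, the order of the 7 genes in clone 1 and in clone 2 was Mthfd1, Mthfd1l, Fpgs, Shmt1, Slc19a1, Mtr and Aldh1l1, and neighbours in that order did not overlap within a clone. In WT the order was the same except that Aldh1l1 stood above Mtr. Levels there overlapped across libraries between Fpgs (17.0 ± 1.23 CPM per kb) and Shmt1 (14.3 ± 2.65), and between Shmt1 and Slc19a1 (12 ± 2.07, SD, n = 2). Within each WT library, Fpgs stood above Shmt1 and Shmt1 above Slc19a1. Mthfd1 stood at 72.9 ± 5.05 CPM per kb in clone 1 and 62.8 ± 2.71 in clone 2, against 61.6 ± 2.64 in WT. Aldh1l1 stood at 0.0695 ± 0.00280 CPM per kb in clone 1 and 0.0786 ± 0.00733 in clone 2, against 8.07 ± 0.175 in WT. Its mitochondrial paralogue Aldh1l2, which catalyses the same oxidation there, was at 10.3 ± 2.44 CPM per kb in clone 1 and 12.4 ± 0.735 in clone 2, against 12 ± 4.11 in WT.

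**Figure D3:**
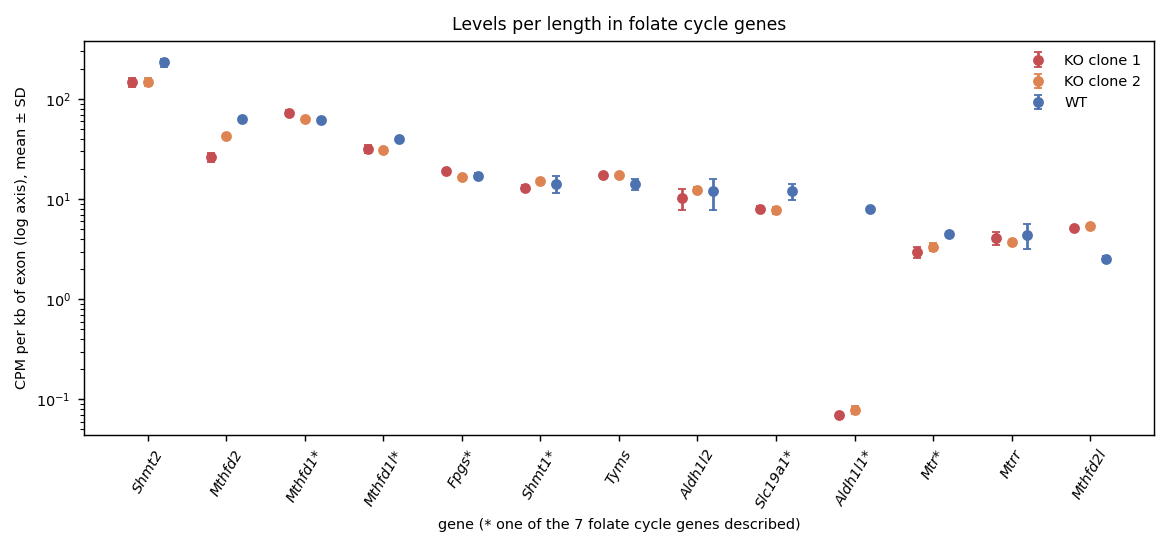
Mean level per kb of exon (CPM per kb, log axis, ± SD of 2 libraries) in knockout clone 1, knockout clone 2 and WT for the 7 genes, marked with an asterisk, and 6 partner genes of the folate cycle, ordered by their WT level. Aldh1l1 stood at 0.0695 and 0.0786 CPM per kb in the clones against 8.07 in WT, while the means of its paralogue Aldh1l2 lay between 10.3 and 12.4 CPM per kb in all groups.

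The bases just before the RefSeq transcription starts are shown for 3 of the 4 genes below WT in both clones, to set Aldh1l1 beside genes with a smaller difference. The Aldh1l1 start in RefSeq lies inside the span that GENCODE gives the gene. Each run is the 250 bases upstream of the start, in GRCm38.p6 and on the gene's strand. Capitals mark matches on either strand to a CCAAT box (CCAAT), a GC box (GGGCGG) or a cyclic AMP response element core (TGACGT).
Aldh1l1, chr6:90550543-90550792, plus strand: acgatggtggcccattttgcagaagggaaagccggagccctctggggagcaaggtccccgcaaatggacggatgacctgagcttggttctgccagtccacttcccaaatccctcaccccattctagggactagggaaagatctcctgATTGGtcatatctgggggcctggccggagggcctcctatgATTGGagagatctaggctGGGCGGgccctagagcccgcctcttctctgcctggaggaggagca
Mthfd1l, chr10:3972825-3973074, plus strand: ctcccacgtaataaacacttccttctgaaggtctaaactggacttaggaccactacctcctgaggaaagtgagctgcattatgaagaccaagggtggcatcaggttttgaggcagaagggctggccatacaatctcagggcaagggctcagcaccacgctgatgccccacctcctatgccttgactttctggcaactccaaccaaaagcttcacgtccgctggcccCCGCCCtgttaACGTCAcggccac
Mtr, chr13:12258114-12258363, minus strand: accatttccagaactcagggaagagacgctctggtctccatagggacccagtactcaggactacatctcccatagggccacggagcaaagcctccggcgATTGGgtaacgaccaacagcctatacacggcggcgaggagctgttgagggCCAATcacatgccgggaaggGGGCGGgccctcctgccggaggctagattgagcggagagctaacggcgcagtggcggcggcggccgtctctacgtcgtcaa
The Aldh1l1 window holds a pair of CCAAT boxes, starting 103 and 63 bases before the start, and a GC box at 45 bases. Mtr has the same kinds of match, at 151 and 101 bases and at 81 bases. Mthfd1l has no CCAAT box, a GC box at 24 bases and the response element core at 13 bases. RefSeq gave 8 windows for the 7 genes, with a pair for Slc19a1, of which the lower in coordinate holds GC boxes at 68 and 30 bases and the other no match. Of these, 5 held a CCAAT box, 7 a GC box and 1 the response element core, against 33.8%, 32.7% and 6.47% of all 32851 windows. All windows were counted whether or not their genes passed the filter on low counts here, whereas the 7 genes all did. The difference in shares was not tested. The E-box CACGTG, the TATA box TATAAA and the C/EBP-ATF element core TGATGNAA matched in 0 of the 8 windows, against 6.02%, 12.4% and 3.45% of all windows. CCAAT and GC boxes occurred both in genes below WT and in Mthfd1, Shmt1 and Fpgs, which overlapped WT.

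The rest of one-carbon metabolism was read from 65 genes listed by pathway, of which 55 were tested. In the mean of both clones 11 rose and 14 fell, 45.5% of those tested, against 34.8% of all genes; their median log2 fold change was −0.08. Among these 25 genes, with each clone set against WT by itself, clone 1 but not clone 2 passed the test for Ahcyl2, Mat2a, Psph, Ppat, Impdh2, Mmachc and Rrm2, and neither clone did for Rrm1. By edgeR the difference between the clones passed for Ahcyl2 and Mthfd2 and for no other of the 55. DESeq2 also called Rrm2 lower in clone 2. Unless a clone is named, log2 fold changes in the following paragraphs are knockout mean minus WT, with adjusted p from edgeR's quasi-likelihood test over all genes.

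Of 11 tested genes of the mitochondrial branch, 2 rose and 3 fell. Mthfd2, the mitochondrial methylene-tetrahydrofolate dehydrogenase, had 98.3 and 85.3 CPM in clone 1 and 149 in each library of clone 2, against 218 and 221 CPM in WT (−0.99 ± 0.11, adjusted p = 1.31e-05). Shmt2, the mitochondrial serine hydroxymethyltransferase, had 490 and 424 CPM in clone 1 libraries and 435 and 491 CPM in those of clone 2, against 772 and 679 CPM in WT (−0.74 ± 0.12, adjusted p = 0.000444). The sarcosine dehydrogenase gene Sardh fell by 0.99 on the log2 scale (adjusted p = 4.69e-05). Mthfd2l, a paralogue of Mthfd2, rose by 0.97 ± 0.14 (adjusted p = 0.000146), with 34.1 to 35.9 CPM in the knockout libraries against 16 and 17.6 CPM in WT. Dld, a subunit of the glycine cleavage system and of other mitochondrial complexes, rose by 0.75 ± 0.16 (adjusted p = 0.00314). The Dld value was 0.55 without WT replicate 1 and 1.10 without WT replicate 2. Aldh1l2 was not called (−0.19 ± 0.17, adjusted p = 0.400). Its value was −0.47 without WT replicate 1, where it was called (adjusted p = 0.00262), and 0.22 without WT replicate 2 (adjusted p = 0.302).

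Of 9 other folate genes tested, 2 fell and 0 rose; 0 were higher by DESeq2 or at an unadjusted p below 0.05 in edgeR. Tyms, the thymidylate synthase gene, was at 0.23 ± 0.12 (adjusted p = 0.149) and was called without WT replicate 1 (0.38, adjusted p = 0.0302). Mtrr, which reactivates methionine synthase, was at −0.31 ± 0.16 (adjusted p = 0.155), at −0.52 without WT replicate 1 (adjusted p = 0.0106) and at 0.05 without WT replicate 2 (adjusted p = 0.884).

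Around the methionine cycle, 1 of 6 tested genes rose and 2 fell. Cth, the cystathionine gamma-lyase gene, acts on the route that takes homocysteine sulfur towards cysteine. Its level was 5.95 and 4.00 CPM in clone 1 libraries and 3.53 and 2.19 CPM in those of clone 2, against 22.2 and 28.4 CPM in WT (−2.84 ± 0.21, adjusted p = 2.43e-07). Ahcyl2, a relative of adenosylhomocysteinase, rose by 0.84 ± 0.17 (adjusted p = 0.00158). By clone it was at 1.27 ± 0.18 in clone 1 (adjusted p = 0.000175) and at 0.41 ± 0.19 in clone 2, which was not called (adjusted p = 0.114). The mean of both clones was 0.62 without WT replicate 1 and 1.27 without WT replicate 2. Mat2a, which makes S-adenosylmethionine, was called at −0.34 ± 0.10 (adjusted p = 0.0210). That call was lost with any 1 library but WT replicate 1 left out (−0.36 to −0.31, adjusted p = 0.0539 to 0.0876) and with no filter on low counts (−0.29, adjusted p = 0.0623).

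Of 6 genes of serine and glycine supply, 3 fell and 0 rose; 0 were higher by DESeq2 or at an unadjusted edgeR p below 0.05. Slc6a9, a glycine transporter gene, fell by 0.87 on the log2 scale (adjusted p = 4.81e-05), with 51.9 to 59.3 CPM in the knockout libraries against 89.6 and 96.9 CPM in WT. Psat1 and Psph, which encode the later steps of serine synthesis, were at −0.55 ± 0.12 (adjusted p = 0.00329) and −0.40 ± 0.11 (adjusted p = 0.0128). For Psph the call did not hold when clone 1 replicate 2 was left out (−0.36, adjusted p = 0.0570) or when clone 2 replicate 1 was (−0.38, adjusted p = 0.0596). Phgdh, the first step, was at −0.09 ± 0.12 (adjusted p = 0.598).

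Of 10 purine synthesis genes, 2 rose and 1 fell. Adss, the adenylosuccinate synthase gene, rose by 0.51 ± 0.13 (adjusted p = 0.00792), and Ppat, which starts the pathway, by 0.49 ± 0.14 (adjusted p = 0.0181). Leaving out clone 2 replicate 1 ended the call of Ppat (0.40, adjusted p = 0.0901). Gart and Atic, the purine enzymes that take carbon from folate and are listed with the folate genes, were at −0.08 ± 0.12 and 0.01 ± 0.12. Impdh2, of guanine nucleotide synthesis, was called at −0.39 ± 0.13 (adjusted p = 0.0316). That call ended when WT replicate 1 (−0.24), either library of clone 1 (−0.41 and −0.38) or replicate 1 of clone 2 (−0.33) was left out, in a fit of 2 groups (−0.39) and with no filter (−0.34), at adjusted p of 0.0504 to 0.220.

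Of 5 genes that supply deoxynucleotides, 3 rose and 0 fell; DESeq2 also called 0 lower, and 1 was lower at an unadjusted p below 0.05. Tk1, the thymidine kinase gene, rose by 0.54 ± 0.12 (adjusted p = 0.00397), with 131 to 155 CPM in the knockout libraries against 102 and 90.4 CPM in WT. The ribonucleotide reductase genes Rrm2 and Rrm1 were at 0.48 ± 0.12 (adjusted p = 0.00712) and 0.32 ± 0.12 (adjusted p = 0.0458). Rrm2 was called in clone 1 (0.72 ± 0.14, adjusted p = 0.00125) and not in clone 2 (0.23 ± 0.14, adjusted p = 0.220), and both clone 2 libraries lay below those of clone 1. The difference itself, clone 2 minus clone 1, was −0.49 ± 0.13. It was not called by edgeR (adjusted p = 0.0600) and was called by DESeq2. Leaving out WT replicate 2 ended the call of Rrm2 (0.33, adjusted p = 0.0771), as did a fit of 2 groups (0.50, adjusted p = 0.0633). Rrm1 lost its call with any 1 library but WT replicate 1 left out (0.21 to 0.34, adjusted p = 0.0912 to 0.264), with DESeq2 size factors (0.31, adjusted p = 0.0580) and in a fit of 2 groups (0.32, adjusted p = 0.0661).

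Among 8 tested genes that handle cobalamin, the cofactor of methionine synthase, 3 rose and 3 fell. Abcd4, a lysosomal cobalamin transporter gene, fell to 14.2 to 16.2 CPM in the knockout libraries, against 25.8 and 31.3 CPM in WT (−1.01 ± 0.14, adjusted p = 0.000143). Cd320, the receptor gene for transcobalamin, was at −0.44 ± 0.13 (adjusted p = 0.0144), and Mmachc, an early processing gene, at −0.40 ± 0.13 (adjusted p = 0.0266). Mmadhc, which directs cobalamin to its enzymes, rose by 0.49 ± 0.11 (adjusted p = 0.00469). Lmbrd1, the lysosomal partner of Abcd4, was at 0.56 ± 0.15 (adjusted p = 0.0106), and Mut, the methylmalonyl-CoA mutase gene, at 0.65 ± 0.19 (adjusted p = 0.0171). Without WT replicate 2 Lmbrd1 was at 0.90 and Mut at 1.02, while without WT replicate 1 Mut was at 0.46. Without WT replicate 1 the calls of Cd320 (−0.34), Mmachc (−0.37) and Lmbrd1 (0.38) were lost, and without clone 2 replicate 1 those of Cd320 (−0.42), Mmachc (−0.41) and Mut (0.57), at adjusted p of 0.0525 to 0.0898. Mmachc was also not called when replicate 2 of WT (−0.44), of clone 1 (−0.35) or of clone 2 (−0.42) was left out and with no filter (−0.36), at adjusted p of 0.0501 to 0.0703.

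**Figure D4:**
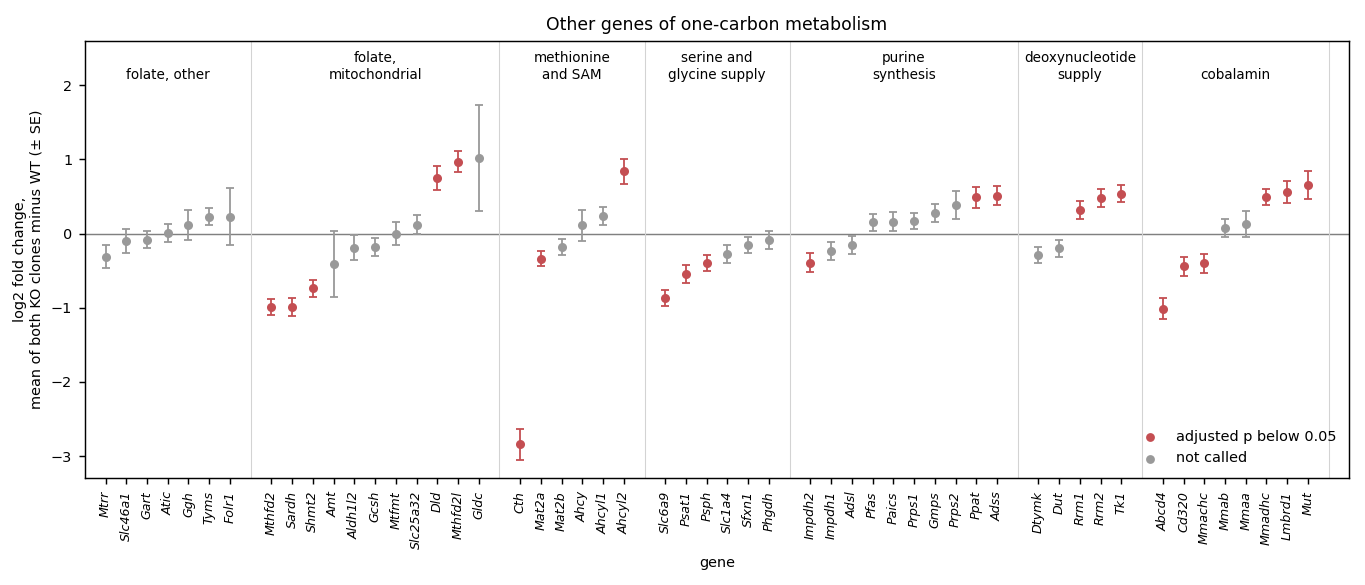
Log2 fold change of the mean of both knockout clones against WT (vertical axis, points with SE) for the tested pathway genes reported here, grouped by list; red points have an adjusted p below 0.05 and grey points do not. Cth stands lowest at −2.84, and Mthfd2, Sardh and Abcd4 lie near −1 while Mthfd2l and Ahcyl2 lie highest among the called genes.

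The genes whose profiles over the 6 libraries lay closest to that of Aldh1l1 were Pxdc1, Calhm2, Fmr1nb, Padi4 and Nr5a1, at distances of 0.40, 0.66, 0.70, 0.79 and 1.06 (Euclidean distance of centred log2 CPM, a description with no test). Pxdc1, Calhm2 and Padi4 had 0 counts in all 4 knockout libraries, and Fmr1nb and Nr5a1 had at most 1 count in any of them. In WT, Pxdc1 stood at 9.81 and 14.3 CPM, Calhm2 at 9.29 and 6.86 CPM, Fmr1nb at 14.2 and 10.1 CPM and Padi4 at 6.20 and 8.17 CPM. Padi4 encodes a peptidylarginine deiminase, Calhm2 a calcium homeostasis modulator and Nr5a1 the nuclear receptor steroidogenic factor 1. They lie on chromosomes 13, 19, X, 4 and 2, in the order named, and not on chromosome 6 with Aldh1l1. Near zero the prior count of 2 sets part of the distance.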

How the data were processed

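Strand-specific total RNA libraries, depleted of ribosomal RNA per the labels' protocols, were measured in 3 groups of 2. The authors aligned reads with STAR 2.6.0c to GRCm38, per the submitters' processing notes, with an annotation release not given in the sources used here. Files the authors deposited hold unnormalised read counts per gene; the reverse-strand counts were used. Rows naming no gene held 46.6% to 50.5% of reads and were left out; reads with several hits are not in gene counts. Symbols, positions and exon lengths came from GENCODE M21 (GRCm38), matching 54079 of 54146 genes. A level of 3 counts is 0.152 to 0.775 CPM by library.

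Genes were filtered with filterByExpr (minimum count 10), scaled by TMM and fitted with edgeR 4.0.16 (R 4.3.3, quasi-likelihood, 1 coefficient per group, 3 residual degrees of freedom), and genes were called where the p adjusted by Benjamini-Hochberg was below 0.05. Each edgeR SE is the absolute log2 fold change divided by the square root of the test's F statistic. The steps were tested on simulated data. Replicates differed by more than sampling noise (chi-square per degree of freedom 12.5 to 20.1). The genes described and the lists were chosen with earlier results of these data known. Named are the 7 genes, fixed partners, up to 3 called genes per list and direction, the neighbours of Aldh1l1 and the 5 closest profiles; Gart, Atic, Phgdh, the genes that share exons and the markers were added after values were seen. Some genes that the rule names are not reported here. Alternatives were DESeq2 1.42.0, its size factors, other filters, unstranded counts, a replicate block, a fit of 2 groups and each library left out. Sequences came from RefSeq (GRCm38.p6).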

Additional observations from a re-analysis of the deposited data

Results flagged for a closer look

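2 pathway genes differed between the clones by edgeR's test of the difference itself. Mthfd2 was higher in clone 2 than in clone 1 by 0.69 ± 0.13 on the log2 scale (edgeR adjusted p = 0.00621), with 149 CPM in each clone 2 library against 98.3 and 85.3 CPM in clone 1. Ahcyl2 was lower in clone 2, at −0.86 ± 0.17 (adjusted p = 0.00999), with 29.9 and 26.2 CPM in clone 2 against 48.5 and 53.1 CPM in clone 1. Both kept their direction in every alternative run. Both lost the call without clone 1 replicate 2 (Mthfd2 0.58, adjusted p = 0.117; Ahcyl2 −0.81, adjusted p = 0.0501), without clone 2 replicate 1 (0.69, adjusted p = 0.0903; −0.96, adjusted p = 0.0555) and without clone 2 replicate 2 (0.69, adjusted p = 0.104; −0.78, adjusted p = 0.168).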

How the results depend on the processing

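Aldh1l1 kept its value in every alternative run, at −6.86 to −6.76, as did Mtr at −0.65 to −0.54 and Mthfd1l at −0.49 to −0.37 (log2, knockout mean minus WT). With 1 library left out, Slc19a1 ranged from −0.86 to −0.48, Shmt1 from −0.29 to 0.11 and Fpgs from −0.10 to 0.07. Between clones the same refits gave −0.14 to 0.06 for Mthfd1l and −0.16 to 0.02 for Slc19a1, none of them called. The count of other pathway genes called lower ranged from 9 to 14. Genes called between clones over the whole table ranged from 46 to 519 higher (155 with all libraries) and from 110 to 689 lower (310). Refits without a WT library gave the most, and leave 1 WT library that is assumed to vary like the others. With no filter these counts were 264 and 549, and the median of all genes against WT moved to 0.15. Aldh1l2 ranged from −0.47 to 0.22 and Mtrr from −0.52 to 0.05 with 1 library left out. The replicate numbers are not stated to pair libraries, and deviations of same-numbered libraries correlated at −0.11 to 0.27. With the replicate number as a block 2443 genes were called higher and 2431 lower against WT, 12 and 14 of them other pathway genes, and Aldh1l1 stood at −6.81. With 5 to 6 counts per knockout library, depth limits any comparison of Aldh1l1 between clones.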
